A study of Homo sapiens with 2 samples.

Results

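Small nucleolar RNAs (snoRNA) and small Cajal body RNAs (scaRNA) were compared between 2 human prostate cancer cell lines. LNCaP comes from a lymph node metastasis and MDA Pca 2b from a metastasis to bone. There was 1 library for each, made per the labels' protocols from 10 ng of total RNA with an amplicon kit that reads 1 short stretch of each gene. The labels give both lines as wild type and name no drug, hormone, dose or time for either, and they give a single batch. Neither the passage nor the culture conditions of the cells are given in the labels, and each line was represented by 1 culture. The members were all rows whose symbol starts with SNORD, SNORA or SCARNA followed by a digit, which gave 92 of 20802 amplicons. By symbol, 4 belong to the box C/D class (SNORD), 72 to the box H/ACA class (SNORA) and 16 to the Cajal body class (SCARNA). Of the 92, 91 reached 10 counts in at least 1 library and are called measured here. The exception was SNORA80B, with 2 counts in LNCaP against 1 in MDA Pca 2b.

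Box C/D and box H/ACA snoRNAs are short nuclear RNAs that base-pair with other RNAs and bring a modifying enzyme to a chosen nucleotide. The box C/D particle carries the methyltransferase fibrillarin and methylates riboses, mainly in ribosomal RNA. The box H/ACA particle carries the pseudouridine synthase dyskerin and turns uridine into pseudouridine. scaRNAs use the same boxes, often both kinds in 1 molecule, but gather in Cajal bodies and guide the modification of spliceosomal RNAs. In human cells most of these RNAs are cut out of introns of host genes, many of which encode ribosomal proteins and translation factors.

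The sequences of the 6 named members with most counts show the boxes by which these classes are recognised. They are given as annotated in GENCODE release 29 on the build GRCh38, 5′ to 3′. In SNORD17 (chr20:17962710-17962946, minus strand) the capitals mark the C box letters TGATGA near the start and the D box letters CTGA near the end. In the box H/ACA RNAs SNORA8 (chr11:93732361-93732499, minus strand), SNORA63 (chr3:186787300-186787431, plus strand), SNORA70 (chrX:154400281-154400415, plus strand), SNORA64 (chr16:1962973-1963106, minus strand) and SNORA49 (chr12:132031224-132031359, plus strand), they mark letters that match the H box ANANNA between the 2 hairpins and the ACA at the tail.
SNORD17: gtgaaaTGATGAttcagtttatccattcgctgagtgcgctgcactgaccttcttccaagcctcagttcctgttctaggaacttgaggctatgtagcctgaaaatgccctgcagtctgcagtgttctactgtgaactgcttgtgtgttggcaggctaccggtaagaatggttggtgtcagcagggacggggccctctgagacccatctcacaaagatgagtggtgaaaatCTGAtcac
SNORA8: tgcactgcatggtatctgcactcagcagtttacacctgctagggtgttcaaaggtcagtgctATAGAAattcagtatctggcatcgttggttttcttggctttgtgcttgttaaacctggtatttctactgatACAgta
SNORA63: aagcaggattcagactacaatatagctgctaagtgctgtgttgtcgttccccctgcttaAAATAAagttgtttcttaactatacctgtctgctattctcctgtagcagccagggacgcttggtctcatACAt
SNORA70: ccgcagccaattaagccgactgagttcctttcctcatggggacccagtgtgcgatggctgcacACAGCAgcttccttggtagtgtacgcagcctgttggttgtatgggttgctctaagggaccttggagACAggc
SNORA64: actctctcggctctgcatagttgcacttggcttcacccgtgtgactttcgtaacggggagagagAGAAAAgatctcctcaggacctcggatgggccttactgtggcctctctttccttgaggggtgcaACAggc
SNORA49: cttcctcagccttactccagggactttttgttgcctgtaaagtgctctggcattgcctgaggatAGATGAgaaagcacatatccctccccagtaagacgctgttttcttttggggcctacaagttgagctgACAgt

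A further 5 sequences were chosen after their values were seen, because each shares a host gene or a similar sequence with an RNA of a different ratio. SNORA1 (chr11:93732004-93732133, minus strand) lies in the same host as SNORA8, and SNORA81 (chr3:186786675-186786852, plus strand) in the same host as SNORA63. SNORA71B (chr20:38425198-38425331, minus strand) and SNORA71D (chr20:38433865-38433998, minus strand) are copies of 1 family, and SNORA70C (chr9:117181066-117181200, minus strand) is a copy of SNORA70. Capitals mark the H box match and the tail ACA where the letters were found. No H box match lay in the central 20% of SNORA1, and no ACA in the last 9 bases of SNORA81.
SNORA1: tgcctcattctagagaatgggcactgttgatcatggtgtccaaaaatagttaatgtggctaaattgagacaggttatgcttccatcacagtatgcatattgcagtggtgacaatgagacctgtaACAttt
SNORA81: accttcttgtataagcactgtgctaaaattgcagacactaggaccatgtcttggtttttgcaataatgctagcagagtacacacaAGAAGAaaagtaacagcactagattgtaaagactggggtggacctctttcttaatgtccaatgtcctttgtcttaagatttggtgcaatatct
SNORA71B: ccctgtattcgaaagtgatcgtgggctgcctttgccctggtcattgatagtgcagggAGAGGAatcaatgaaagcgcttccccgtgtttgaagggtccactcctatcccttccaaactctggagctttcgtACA
SNORA71D: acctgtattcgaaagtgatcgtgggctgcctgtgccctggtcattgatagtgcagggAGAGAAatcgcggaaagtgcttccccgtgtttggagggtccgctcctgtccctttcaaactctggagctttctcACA
SNORA70C: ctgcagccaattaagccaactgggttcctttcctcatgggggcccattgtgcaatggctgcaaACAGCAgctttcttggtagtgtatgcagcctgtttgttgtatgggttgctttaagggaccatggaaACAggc

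The annotated sequences carried the letters of their classes, searched on the RNA's own strand. ACA stood in the last 9 bases of 64 of 67 placed SNORA members (95.5%), against 45 of 538 other annotated short RNAs of 125 to 249 bases (8.36%). ANANNA in the middle part (the central 20%) was found in 59 of 67 (88.1%) and in 211 of the 538 (39.2%). All 4 SNORD members had TGATGA in the first 25 bases and CTGA in the last 25, while these letters stood there in 0.743% and 6.88% of the other short RNAs. Of 14 placed SCARNA members, 7 had the tail ACA and 9 the H box letters.

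The LNCaP library held 10778061 counts and that of MDA Pca 2b 8558660, so 1 count equals 0.0923 counts per 1000000 (CPM) in the first and 0.117 in the second. A count of 0 allows up to 3 counts, which is 0.277 CPM in LNCaP against 0.352 CPM in MDA Pca 2b. Ratios are of CPM after scaling by the library total and the edgeR TMM factor (1.01 for LNCaP and 0.994 for MDA Pca 2b). With 1 library per line there is no test between the lines. Each ratio carries an exact 95% interval from the 2 counts, which covers the counting error of reads only and leaves out the spread between cultures. Several reads can be copies of 1 molecule and carry no identifier to tell them apart, so the interval may be too narrow for molecules. An RNA is called higher in a line where the whole interval lies beyond 2-fold. As a check of the labelled tissue, all 7 luminal prostate markers found were measured, among them KLK3, which encodes prostate-specific antigen, at 549 CPM in LNCaP against 1828 CPM in MDA Pca 2b. Leukocyte, fibroblast and endothelial marker lists summed to 10.7, 13.2 and 3.51 CPM in LNCaP and to 29.6, 3.76 and 4.35 CPM in MDA Pca 2b. PTPRC, CD3E, LYZ, COL1A2, CDH5 and KDR were at 0 counts in both libraries. Of the rest of these lists, 4 genes were measured. CD68 had 116 counts in LNCaP and 251 in the other library, COL1A1 132 and 24, VWF 20 and 1, and PECAM1 18 and 36. The first was called higher in MDA Pca 2b, and COL1A1 and VWF were called higher in LNCaP. The part of such cells in the results was not tested.

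The 92 RNAs together held 159296 counts in LNCaP, which is 1.48% of the library (exact 95% interval 1.47 to 1.49). In MDA Pca 2b they held 528817 counts, 6.18% of the library (6.16 to 6.19). The share was therefore 4.18 times as large in MDA Pca 2b (4.16 to 4.20). The box C/D class went from 0.159% to 1.04% of counts, a ratio of 6.53 (6.43 to 6.64), and SNORD17 made up most of it. The box H/ACA class held 1.10% in LNCaP against 4.75% in MDA Pca 2b, a ratio of 4.30 (4.27 to 4.33). The Cajal body class moved least, from 0.215% to 0.394%, a ratio of 1.84 (1.80 to 1.87). A few RNAs carried much of the sum. The 4 members with most counts held 43.2% of all member counts in LNCaP against 57.9% in MDA Pca 2b. Without the 4 leaders of MDA Pca 2b the share was 0.853% against 2.60%, a ratio of 3.05 (3.03 to 3.07). Of the 100 genes with most counts, 3 were snoRNAs or scaRNAs in LNCaP against 12 in MDA Pca 2b. In bulk RNA a larger share of cells with an RNA and more of it per cell cannot be told apart.

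**Figure D1:**
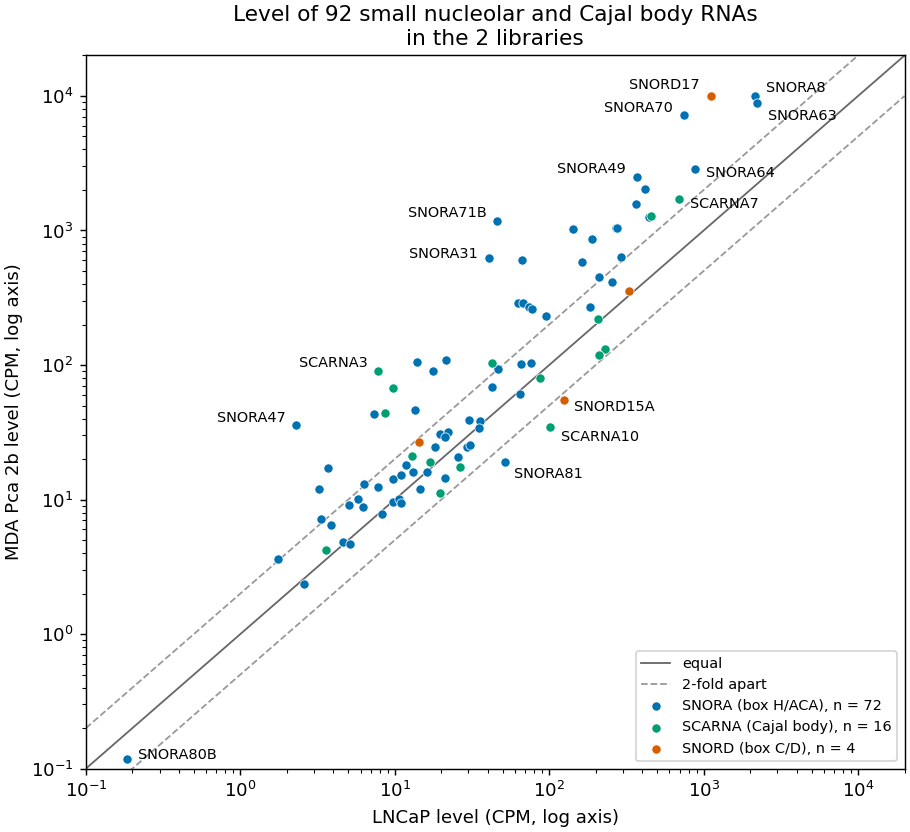
Level of each of the 92 RNAs in LNCaP (horizontal axis, CPM, log scale) against MDA Pca 2b (vertical axis, CPM, log scale), 1 point per RNA and 1 library per line; the solid line marks equal levels and the dashed lines a 2-fold difference. The RNAs with most counts lie above the upper dashed line, with SNORD17 at 1111 CPM in LNCaP against 9993 CPM in MDA Pca 2b, while SCARNA10, SNORA81 and SNORD15A lie below the lower one.

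RNA by RNA, 38 of the 91 measured members (41.8%) were called higher in MDA Pca 2b, while 10.9% of all 14418 measured genes were. In the other direction 3 members (3.30%) were called higher in LNCaP, beside 13.2% of all measured genes. The other 50 members were called in neither line, and 24.1% of all measured genes were called in either. The median log2 ratio of the members was 0.73 (MDA Pca 2b over LNCaP), against -0.0018 over all measured genes. Ratios were above 1 for 69 members and below 1 for 22, and the split ran from 69 against 22 to 75 against 16 over the scalings tried. By class, 31 of 71 measured SNORA members were called higher in MDA Pca 2b, while 1 was in LNCaP. Their median log2 ratio was 0.83. For SCARNA the calls were 6 and 1 of 16, with a median of 0.20, and for SNORD 1 and 1 of 4, with a median of 0.51. The 2-fold rule cut through a run of like values. SNORA71A (2.16, 2.07 to 2.26) and SNORA9 (2.15, 2.04 to 2.26) were just inside it, and SNORA53 (2.01, 1.80 to 2.25) and SNORA2B (2.16, 1.41 to 3.35) just outside.

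**Figure D2:**
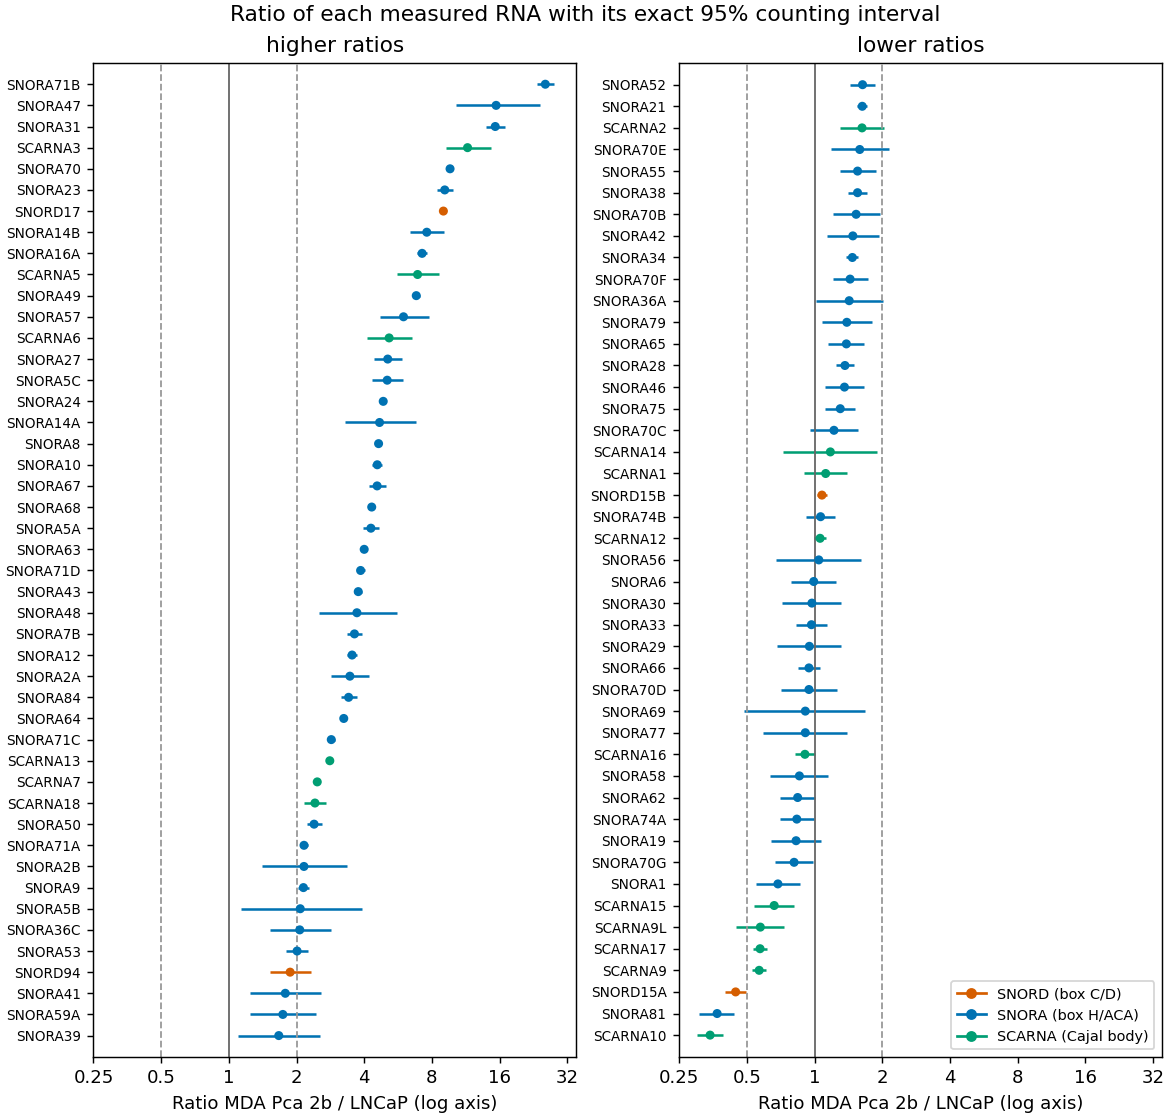
Ratio of MDA Pca 2b to LNCaP (horizontal axis, log scale) for each of the 91 measured RNAs, ordered by ratio over both panels; points are ratios, bars are exact 95% intervals from the counts of 1 library per line, and dashed lines mark 2-fold. The intervals of 38 RNAs lie wholly above 2-fold, led by SNORA71B at 25.5, and those of 3 lie wholly below the lower line.

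The share of members called higher in MDA Pca 2b grew with their level, while that of other genes lay between 9.29% and 13.5%. Below a mean of 20 CPM, 3 of 29 members (10.3%) were called, close to the 11.1% of other genes at that level. From 20 to 50 CPM the count was 5 of 18 (27.8%, other genes 9.29%), and from 50 to 200 CPM it was 9 of 19 (47.4%, other genes 10.6%). From 200 to 1000 CPM 13 of 17 were called (76.5%, other genes 12.2%), and at 1000 CPM or more all 8 (100%, other genes 13.5%). The mean level contains the MDA Pca 2b value itself, and intervals narrow as counts grow, so level and call are not separate measures. As a description over the 91 measured members, which share both libraries, the log2 ratio and the log2 mean level gave Pearson's r of 0.474 and Spearman's rho of 0.453. Annotated length, from 125 to 420 bases, gave r of -0.095 and rho of -0.0026 over 84 measured members with a placement. GC content, from 32.8% to 65.5%, gave r of 0.238 and rho of 0.236 over the same 84.

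**Figure D3:**
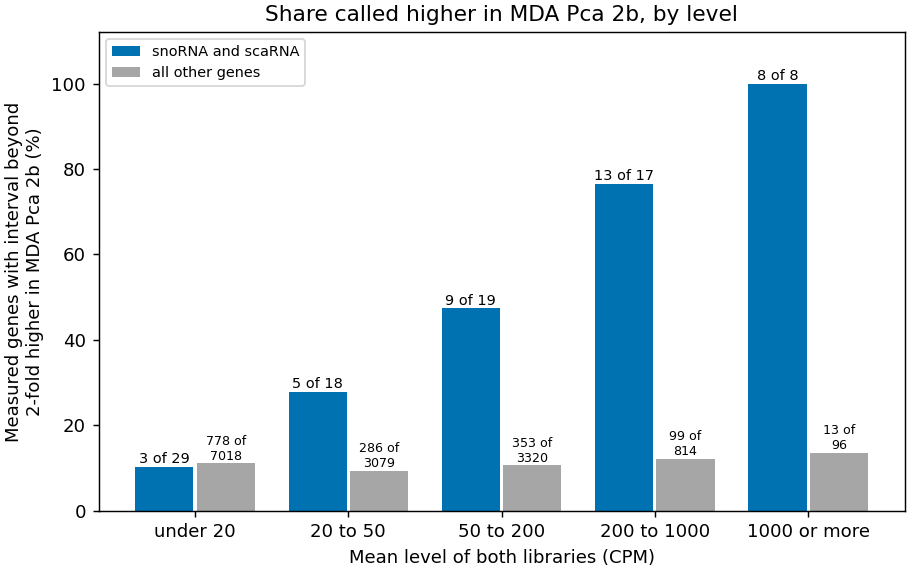
Percentage of measured RNAs called higher in MDA Pca 2b (vertical axis) by the mean CPM of both libraries (horizontal axis), for snoRNAs and scaRNAs (blue) and for all other genes (grey), with the counts above each bar. The blue bars go from 10.3% to 100%, and the grey bars lie between 9.29% and 13.5%.

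The 4 box C/D members differed in direction and size. SNORD17, which guides methylation of the large ribosomal RNA, had 12039 counts (1111 CPM) in LNCaP against 85048 (9993 CPM) in MDA Pca 2b. This is a 9.0-fold difference (8.83 to 9.17) towards MDA Pca 2b, where it had the most counts of any member. SNORD94, which guides methylation of the spliceosomal U6 RNA, had 155 and 228 counts, a ratio of 1.87 (1.52 to 2.31) with no call. SNORD15A and SNORD15B both guide methylation of the large ribosomal RNA and lie in different introns of RPS3, a gene of the small ribosomal subunit. SNORD15B had 3571 counts in LNCaP against 3024 in MDA Pca 2b, a ratio of 1.08 (1.03 to 1.13). SNORD15A went the other way, with 1343 and 470 counts, 2.24-fold higher in LNCaP (2.02 to 2.5). That call lay at the edge of the 2-fold rule and was lost under 3 of the other scalings and depths tried.

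Among the box H/ACA RNAs, the leaders by counts were called higher in MDA Pca 2b. SNORA8 had 23348 counts (2154 CPM) in LNCaP against 84948 (9981 CPM) in MDA Pca 2b, 4.63-fold higher (4.57 to 4.70). SNORA63 had 23918 counts (2207 CPM) and 75104 (8824 CPM), 4.0-fold higher in MDA Pca 2b (3.94 to 4.06). SNORA70, a guide for the small ribosomal RNA, had 8091 counts (747 CPM) and 61198 (7191 CPM), 9.63-fold higher (9.41 to 9.86). With SNORD17, these 3 were the 4 genes with most counts among the snoRNAs and scaRNAs of MDA Pca 2b, and 4 of that library's 10 leading genes were members, against 0 in LNCaP. SNORA64, a guide for the large ribosomal RNA, had 9508 and 24219 counts, 3.24-fold higher in MDA Pca 2b (3.17 to 3.32). SNORA49 had 3994 and 21375 counts, 6.82-fold higher (6.59 to 7.05). Counts of different amplicons depend on their primers as well as on the RNA, so the order of levels among RNAs is an order of counts.

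Larger ratios still were found among RNAs with fewer counts in LNCaP. SNORA71B, of a family that guides pseudouridylation of the small ribosomal RNA, had 500 counts (46.1 CPM) in LNCaP against 10030 (1178 CPM) in MDA Pca 2b, 25.5-fold higher (23.3 to 28.0). SNORA47 had 25 counts in LNCaP against 303 in MDA Pca 2b, 15.4-fold higher (10.3 to 24.2). SNORA31 had 443 and 5322 counts, 15.3-fold higher (13.9 to 16.9). Its annotated position overlaps an exon of TPT1, and the counting is not stated to use strand or to part overlapping genes, so its reads may include those of TPT1. SNORA23 had 719 and 5151 counts, 9.12-fold higher (8.44 to 9.88), and SNORA16A had 1548 and 8793, 7.23-fold higher (6.85 to 7.64). The table gives SNORA16A no gene identifier, so it was not placed in the genome. At the other end, SNORA81 was the 1 SNORA member called higher in LNCaP, with 563 counts (51.9 CPM) there and 163 (19.2 CPM) in MDA Pca 2b, a 2.71-fold difference (2.27 to 3.25). SNORA1 had 228 and 123 counts, 1.46-fold on the LNCaP side (1.16 to 1.83) with no call. SNORA66, SNORA62, SNORA74A and SNORA70G had ratios of 0.944, 0.841, 0.834 and 0.811, with no call.

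The 16 Cajal body RNAs divided between the lines. SCARNA3 had 85 counts (7.84 CPM) in LNCaP against 769 (90.4 CPM) in MDA Pca 2b, 11.5-fold higher (9.20 to 14.6). SCARNA5 and SCARNA6, which lie in introns of the autophagy gene ATG16L1, were higher in MDA Pca 2b by 6.91-fold (5.61 to 8.58) and 5.16-fold (4.10 to 6.55). SCARNA13, SCARNA7 and SCARNA18 were higher there too. SCARNA7 led the class in both libraries, with 7540 and 14641 counts, a 2.47-fold difference (2.40 to 2.54). SCARNA13 had 4928 and 10881 counts, 2.81-fold (2.72 to 2.91), and SCARNA18 had 465 and 882, 2.42-fold (2.16 to 2.71). SCARNA10, which carries both kinds of box and guides both kinds of modification of the spliceosomal U5 RNA, was the 1 SCARNA called higher in LNCaP. It had 1095 counts (101 CPM) there and 295 (34.7 CPM) in MDA Pca 2b, a 2.91-fold difference (2.56 to 3.33), the largest on the LNCaP side of all members.

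Several other guides for the spliceosomal RNAs lay on the LNCaP side without passing 2-fold. SCARNA9, a guide for the U2 RNA, had 2268 counts in LNCaP against 1010 in MDA Pca 2b, a 1.76-fold difference (1.64 to 1.90). SCARNA17, a guide for the U12 and U4 RNAs, had 2506 and 1126 counts, 1.75-fold (1.63 to 1.88). SCARNA9L had 213 and 96 counts, 1.74-fold (1.36 to 2.24), and SCARNA15, a guide for U2, had 285 and 148, 1.51-fold (1.24 to 1.86). The intervals of these 4 excluded equality but not a difference under 2-fold. SCARNA2, another U2 guide, had 141 and 180 counts, a ratio of 1.63 on the MDA Pca 2b side (1.30 to 2.04). The ratios of SCARNA1 (1.12), SCARNA12 (1.06), SCARNA14 (1.18) and SCARNA16 (0.906) were closest to 1, and their intervals included equality.

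Most host genes had no call, as was so for most of all measured genes. By annotation, 85 members could be placed, and 83 of them lay inside a gene on the same strand. For 75 members that host had a row in the table, 73 of them in an intron and 2 overlapping an exon (SNORA31 in TPT1 and SNORA56 in DKC1). The 75 had 62 distinct hosts, all measured, and 73 of the 75 pairings were with coding genes. Of the 62 hosts, 2 were called higher in MDA Pca 2b while 8 were in LNCaP, beside 10.9% and 13.2% of all measured genes, so the LNCaP calls were near the share over all genes. The median log2 ratio of the hosts was -0.29. Of the 28 members called higher in MDA Pca 2b that had such a host, the host was called higher in MDA Pca 2b for 2, in LNCaP for 4 and in neither for 22. These counts stand beside the same 10.9% and 13.2% of all measured genes, and neither the 2 nor the 4 is far from its share. They count members, so a host of several is counted more than once, as TBRG4 is among the 4. The 2 were SCARNA5 and SCARNA6, whose host ATG16L1 had 375 counts in LNCaP against 718 in MDA Pca 2b, 2.44-fold higher. The other called host on that side was ASTN2, at 0 counts in LNCaP against 281 in MDA Pca 2b. The near end of its interval was 96.4-fold. SNORA70C, which lies in an intron of ASTN2, had 142 and 136 counts, a ratio of 1.22 (0.957 to 1.55). The member's ratio was above that of its host in 62 of 75 pairs, which repeat some hosts. Ratios were above 1 for 69 of the 91 measured members and for 7201 of all 14418 measured genes. Members would therefore lie above many genes that are not their hosts, and the count against other genes was not computed. Over all 75 pairs, SNORA80B included, the log2 ratio of the member minus that of the host had a median of 1.11.

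Single pairs set the ratios of member and host side by side. SNX5, a sorting nexin and the host of SNORD17, had 1917 counts in LNCaP against 1101 in MDA Pca 2b, 1.37-fold on the LNCaP side. RPL10, a ribosomal protein gene and the host of SNORA70, had 6156 and 4061 counts, 1.19-fold on the LNCaP side. SNORD17 and SNORA70 themselves were 9.0-fold and 9.63-fold higher in the other line. EP400, which encodes a chromatin remodeller and holds SNORA49, had 142 and 163 counts, 1.46-fold on the MDA Pca 2b side, and TPT1, which holds SNORA31, was 1.34-fold on that side. ZBED3, the host of SNORA47, had 54 and 36 counts, 1.18-fold on the LNCaP side, and its interval included equality (ratio 0.541 to 1.32). For SCARNA7, SNORA63, SNORA5A and SNORA5C the host was called in the other direction. KPNA4, a nuclear import receptor gene and the host of SCARNA7, had 1193 counts in LNCaP against 237 in MDA Pca 2b. It was 3.95-fold higher in LNCaP, and SCARNA7 was 2.47-fold higher in the other line. The calls of the hosts EIF4A2 (of SNORA63) and TBRG4 (of SNORA5A and SNORA5C) were lost under upper quartile scaling and under the library total without the members. In the 3 members called higher in LNCaP, the host was called higher in LNCaP for 2. SCARNA10 and its host NCAPD2, a condensin subunit gene, had like differences, 2.91-fold and 3.16-fold. The hosts of the other named members, where in the table, had no call. The intervals of SNHG10, PPP1R8 and KIAA1731 included equality, and RPSA had 47 and 17 counts (fold interval 1.22 to 4.03). IPO7, the host of SNORA23, was 1.22-fold, SNHG10 (SCARNA13) 1.12-fold, TMEM167A (SCARNA18) 1.94-fold, PHB2 (SCARNA12) 1.58-fold, TIPIN (SCARNA14) 1.83-fold and RPSA (SNORA62) 2.17-fold on the LNCaP side. RFWD2, the host of SCARNA3, was 1.18-fold, RPL5 (SNORA66) 1.15-fold, PPP1R8 (SCARNA1) 1.16-fold, KIAA1731 (SCARNA9) 1.09-fold, SNHG4 (SNORA74A) 1.24-fold and PTCD3 (SNORD94) 1.07-fold on the MDA Pca 2b side. SNORD15A was called against the side of its host, since RPS3 had 9541 and 12003 counts, 1.60-fold on the MDA Pca 2b side.

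**Figure D4:**
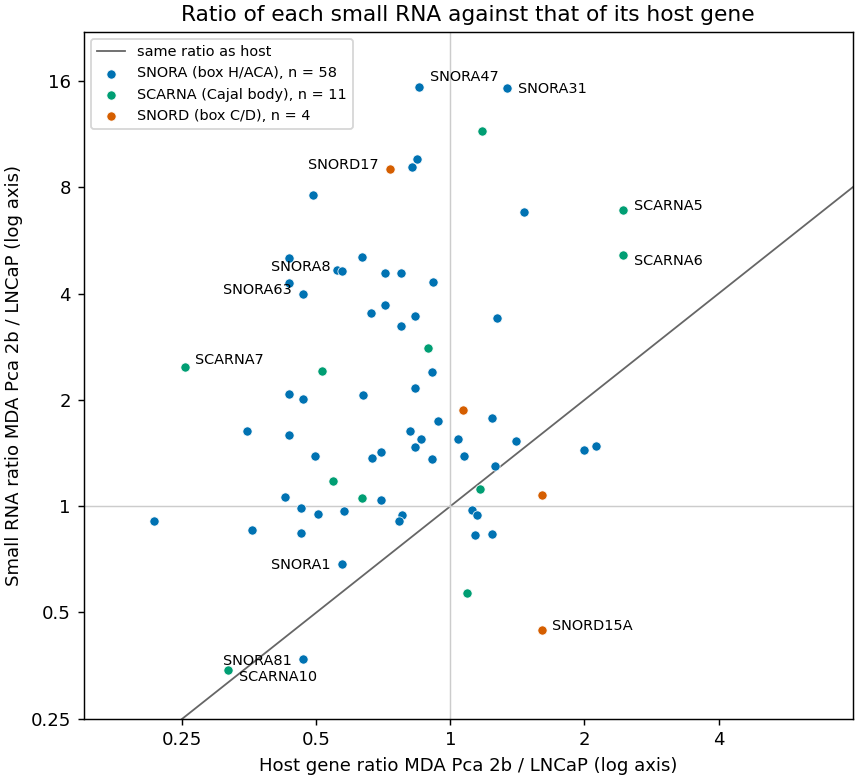
Ratio of MDA Pca 2b to LNCaP for 73 small RNAs (vertical axis, log scale) against the ratio of the gene that holds each of them (horizontal axis, log scale), 1 point per RNA; the diagonal marks equal ratios and the grey lines a ratio of 1. SNORA80B (not measured) and SNORA70C (host at 0 counts in LNCaP) are not drawn. Most points lie above the diagonal, with KPNA4 and SCARNA7 on opposite sides of 1.

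The ratios of RNAs that lie in the same gene are set side by side here. Whether their reads came from the cut-out RNA or from the host transcript was not tested. Of the 12 genes that held 2 or more members, the intervals of the highest and lowest ratio did not overlap in 8 genes and overlapped in ATG16L1, DKC1, EIF4A1 and RPSA. The extremes were picked by their values, and intervals of counting error narrow as counts grow. The same share over other sets of genes was not computed, so the 8 are not a result about shared hosts. In EIF4A2, a translation factor gene that was itself 2.14-fold higher in LNCaP (9034 and 3308 counts), SNORA63 was 4.0-fold higher in MDA Pca 2b and SNORA81 was 2.71-fold higher in LNCaP. Their ratios were 10.8 times apart. In TAF1D, which encodes a subunit of an RNA polymerase I factor, the ratio of SNORA8 was 4.63 and that of SNORA1 was 0.687, 6.74 times apart. TAF1D itself had 2686 and 1201 counts, 1.76-fold on the LNCaP side. In TBRG4, called 2.30-fold higher in LNCaP, SNORA5C, SNORA5A and SNORA5B all lay on the MDA Pca 2b side, with ratios of 5.06, 4.28 and 2.08. SNORA5A and SNORA5B match at 120 of 134 aligned positions, so the split of reads between them is uncertain. In RPS2, SNORA10 (4.57) and SNORA64 (3.24) lay closer together, and the host was 1.29-fold on the LNCaP side.

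**Figure D5:**
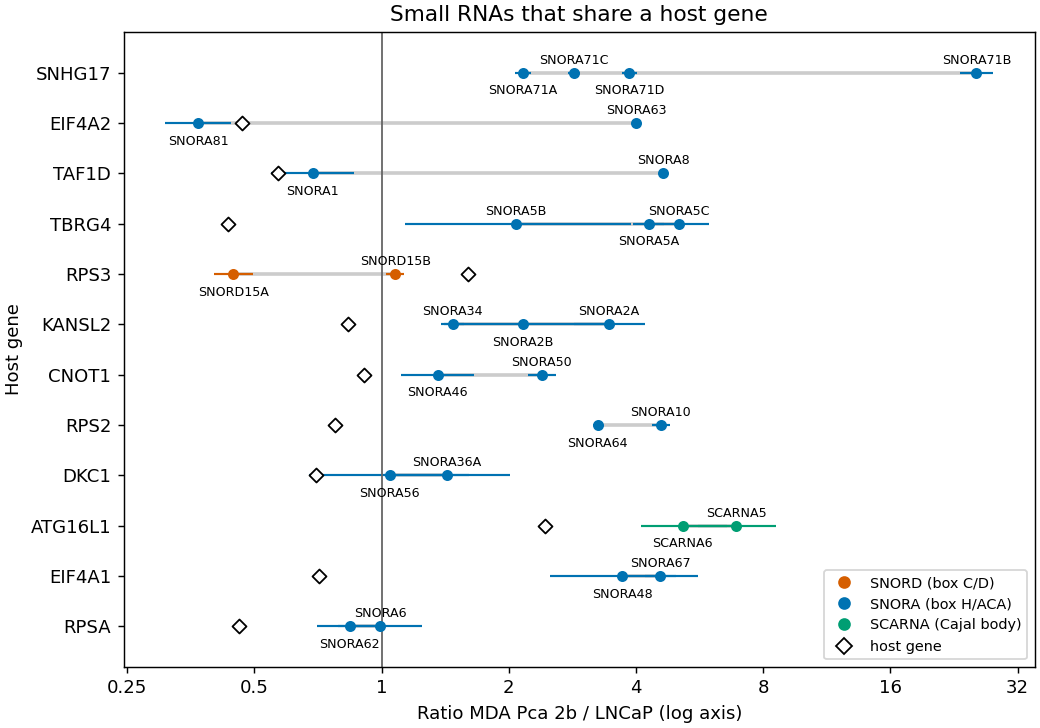
Ratio of MDA Pca 2b to LNCaP (horizontal axis, log scale) for small RNAs that share a host gene (vertical axis), with exact 95% intervals from the counts of 1 library per line; open diamonds are the host gene's own ratio, drawn where the host's value was used. The members of SNHG17, EIF4A2 and TAF1D lie farthest apart, by 11.8, 10.8 and 6.74 times.

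The SNORA71 and SNORA70 families of similar copies differed within themselves. The 2 pairs closest in sequence had overlapping intervals, which were wide at low counts (SNORA36A 67 and 75, SNORA14A 40 and 147). Those of SNORA5A and SNORA5B (89.6% identity) did not overlap, at 3.94 to 4.66 and 1.14 to 3.89. SNORA36A and SNORA36C (97.0% identity) had ratios of 1.43 (1.01 to 2.01) and 2.07 (1.52 to 2.83), with no call. SNORA14A and SNORA14B (91.1% identity) had ratios of 4.68 (3.28 to 6.82) and 7.59 (6.38 to 9.08), both called higher in MDA Pca 2b. The 4 SNORA71 copies lie inside the noncoding gene SNHG17 on chromosome 20 and share 83.1% to 90.3% of their bases. Their ratios were 25.5 for SNORA71B, 3.85 for SNORA71D (3.70 to 4.02), 2.85 for SNORA71C (2.76 to 2.95) and 2.16 for SNORA71A (2.07 to 2.26). All 4 were called higher in MDA Pca 2b. Their levels ran from 46.1 to 443 CPM in LNCaP and from 633 to 1266 CPM in MDA Pca 2b. SNORA71B and SNORA71D match at 121 of 134 aligned positions, as the sequences above show. SNORA70 stood apart from its 6 measured copies, which lie in other genes or, for SNORA70G, inside no gene found on the same strand. SNORA70B to SNORA70G had ratios from 0.811 to 1.59 with no call, at 7.84 to 25.6 CPM in LNCaP and 10.1 to 31.7 CPM in MDA Pca 2b. SNORA70C matches SNORA70 at 122 of 135 positions. Reads of such copies can be assigned to the wrong one, and how the counting treated them is not given in the sources used here, so the values within each family are uncertain.

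Transcripts of the core proteins that bind these RNAs had ratios on the LNCaP side, as did 7217 of all 14418 measured genes. All 4 box C/D core genes had ratios below 1, except that NOP58 stood at 1.03 under upper quartile scaling. FBL, which encodes the methyltransferase fibrillarin, was called 2.29-fold higher in LNCaP with 2989 and 1025 counts. NHP2L1, NOP56 and NOP58 were 1.61-fold, 1.27-fold and 1.05-fold on the LNCaP side with no call. All 4 box H/ACA core genes had ratios below 1 too, under every scaling tried. NHP2 was called 2.62-fold higher in LNCaP, with 357 and 107 counts. NOP10 was 1.72-fold, DKC1, which encodes the pseudouridine synthase dyskerin, 1.43-fold and GAR1 1.21-fold on the LNCaP side, with no call. The intervals of NOP58 (ratio 0.887 to 1.02) and GAR1 (0.496 to 1.37, from 43 and 28 counts) included equality. The calls of FBL and NHP2 were lost under upper quartile scaling, at ratios of 0.473 and 0.413. The median log2 ratios of the 2 core lists were -0.52 and -0.65, against -0.0018 over all measured genes.

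Calls in the longer lists of the pathway are set beside the 10.9% (MDA Pca 2b) and 13.2% (LNCaP) of all measured genes. Of 15 assembly factors, 0 were called higher in MDA Pca 2b by the 2-fold interval rule and 2 in LNCaP, the ATPase gene RUVBL1 (2.81-fold) and BCCIP (2.55-fold). The 2 are 13.3% of the list, near the share over all genes. Of 19 Cajal body genes the calls were 0 and 2 (10.5%), the latter also near that share. USPL1 was 4.76-fold higher in LNCaP and SMN2 36.8-fold, with 703 and 15 counts. SMN2 is a near-identical copy of SMN1, which had 1453 and 1169 counts, so the split between them is uncertain. COIL, which encodes coilin, the scaffold of Cajal bodies, was 1.63-fold on the LNCaP side with no call. Of 19 genes of snoRNA end processing and decay, 0 and 1 were called, the exosome helicase gene SKIV2L2 (2.29-fold higher in LNCaP, a call lost under upper quartile scaling and under the total without members). Of 31 genes of the nucleolus and the small subunit processome, UTP6 was called in MDA Pca 2b (2.24-fold) and DDX21, a nucleolar helicase gene, in LNCaP (3.34-fold). Of 14 RNA polymerase I genes, TAF1A was called in MDA Pca 2b (2.44-fold) and 0 in LNCaP. The median log2 ratios of these 5 lists were -0.51, -0.22, -0.17, -0.26 and -0.04 in this order.

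Calls among the noncoding snoRNA host genes were near the share over all genes, at 2 of 15 measured (13.3%) in each direction, beside 10.9% and 13.2%. Of these, SNHG7 (2.63-fold) and SNHG12 (2.62-fold) were called higher in MDA Pca 2b, and SNHG9 (6.02-fold) and SNHG3 (5.27-fold) in LNCaP. Their median log2 ratio was -0.16. Of 4 other short noncoding RNAs, 0 were called in either direction. TERC, the telomerase RNA, which carries an H/ACA domain bound by the same proteins, had 461 and 683 counts, 1.89-fold on the MDA Pca 2b side (1.67 to 2.13). RPPH1, the RNA of ribonuclease P, had 21967 and 27527 counts, 1.60-fold on that side (1.57 to 1.62). RMRP, its relative in ribonuclease MRP, had 25151 and 16738 counts, 1.18-fold on the LNCaP side, and the spliceosomal RNU12 had 212 and 118, 1.41-fold on that side.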

How the data were processed

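RNA of 1 LNCaP and 1 MDA Pca 2b culture was read with an amplicon panel, per the labels' protocols. The deposited table holds whole-number counts per amplicon, with no normalization visible in them. Per the submitters' processing notes, hg19 and DESeq were used, in roles that are not stated. How reads were aligned, filtered and counted is not given in the sources used here. From its 20812 rows, 10 spike-in controls at 0 counts were left out. Gene symbols turned into dates (28) were kept under their amplicon names.

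The members and lists were chosen with earlier results of these data known. Each count was scaled by its library's total and TMM factor (edgeR 4.0.16, R 4.3.3). Ratios carry exact Clopper-Pearson 95% intervals, conditional on the sum of both counts (scipy 1.17.1), and log2 ratios used 0.5 added counts. A gene was taken as measured where 1 library or both held 10 counts or more, and called where the near end of its interval passed 2-fold. DESeq2 (1.42.0) size factors served as an alternative scaling. The calling step was tested on simulated counts.

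Of the 92 members, 76 were placed in GENCODE 29 (GRCh38) by Entrez identifier and 9 by approved symbol, where the table gives an identifier of the gene name register. The 7 rows with no identifier were not placed. A host is the shortest gene that contains the member on the same strand and has a row in the table. Identity is the share of identical columns in a global alignment (Biopython 1.88). By rule, 37 members are named, with their hosts where these have a row in the table. The rule took, in each class, the 6 largest ratios in each direction by the interval's near end, the 5 with most counts in each library, every measured SCARNA and a fixed set of 15 symbols, of which SNORD17 was found and the others were not analysed here. Of the 9 pathway lists it took both core lists whole and up to 3 genes in each direction with at least 50 counts in a library. Other genes named, such as those at the edge of the 2-fold rule, copies, other members of shared hosts, COIL, TERC and ASTN2, were chosen after their values were seen. Sequence letters were searched on the annotated strand.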

Additional observations from a re-analysis of the deposited data

How the results depend on the processing

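The count of members called higher in MDA Pca 2b was between 37 and 38 under the other scalings, count minimums and thinning of the larger library to the smaller total. Under DESeq2 size factors SNORA9 lost its call. The count was 42 at a 1.5-fold and 29 at a 3-fold threshold, where 19.3% and 5.90% of all measured genes were called. With an assumed spread of 40% between cultures it fell to 11 (12.1% of members), while 552 of all measured genes (3.83%) were called. Calls in LNCaP numbered 5 at 1.5-fold (22.5% of all measured genes), 0 at 3-fold (6.21%) and 0 with the assumed spread, and 2 under upper quartile scaling, the library total without members, and thinning, where SNORD15A lost its call (ratios 0.482, 0.463 and 0.452). Upper quartile scaling moved the median log2 ratio of all genes by 0.11, to 1814 called in MDA Pca 2b and 1656 in LNCaP (1567 and 1910 before). Leaving out near copies (at least 80% identity) and members with no identifier, chosen after seeing the data, left 67 members with 26 and 3 calls. The ratio of the shares was 4.39 with the other genes as denominator and 3.80 without SNORD17. The median log2 ratio kept its sign under every setting run. For the 37 named members, 268 of 296 values under other settings kept the call or, where uncalled, stayed uncalled and within their interval. Of the others, 21 lost the call, 3 gained it and 4 moved beyond their interval. Uncalled members could not change at the 3-fold threshold or with the assumed spread, which leave ratios as they are and only make calls harder. Under the scalings and thinning alone, 3 values lost the call, all of SNORD15A, and 4 moved. No called ratio changed sides of 1 (0 reversed), but the uncalled SNORA66 went from 0.944 to 1.02 under upper quartile scaling. Each scaling shifts every ratio by the same small factor, and the thresholds and assumed spread leave ratios unchanged. For those settings the 0 reversed was therefore fixed in advance. No paired analysis was possible because each line had 1 library. The spread between cultures is not measured by these files.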
